A study of Mus musculus with 8 samples.

Results

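Bone morphogenetic protein (BMP) ligands are the subject here, as 9 genes taken by name from the 22053 rows of a protein-coding expression table: Bmp2, Bmp3, Bmp4, Bmp5, Bmp6, Bmp7, Bmp8a, Gdf6 and Gdf10. Each name matched 1 row. The table holds bulk RNA-seq of 8 libraries, all from wild-type animals (mice) on postnatal day 10. The sorted cells of 4 libraries came from the spine and are called candidate vertebral skeletal stem cells (vSSC). Those of the other 4 came from femur and tibia and are long bone skeletal stem cells (lbSSC). Each group has 2 male libraries (replicates 1 and 2) and 2 female libraries (replicates 3 and 4). Both groups passed the same sort: cells with CD200 on the surface were kept, and cells with CD105, 6C3, Thy, CD45, TER119 or CD31 were left out. No allele or agent set them apart. The libraries are named biological replicates, and the number of animals behind each is not stated in the labels, so a p-value covers the spread between these libraries, which may be technical.

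BMPs and the related growth and differentiation factors (GDFs) are secreted dimers of the TGF-beta superfamily. They bind pairs of type I and type II receptor kinases, which phosphorylate Smad proteins that enter the nucleus and switch on genes such as the Id family. They were named for inducing bone when implanted, and in the growing skeleton they act on cartilage condensation, chondrocyte maturation, osteoblast differentiation and joint formation. Bmp2 and Bmp4 are close relatives. Bmp5, Bmp6, Bmp7 and Bmp8a form a second branch, Gdf6 belongs with Gdf5 to a joint-associated branch, and Bmp3 and Gdf10, also named BMP3B, form a divergent branch that is known to oppose other BMPs in several assays. The nucleotide sequences followed these branches. Over the last 330 bases of the coding sequence of the principal isoform, which encode most of the mature ligand, Bmp5 and Bmp6 were 79.7% identical, Bmp2 and Bmp4 76.6%, and Gdf6 and Gdf5 75.8%. Bmp3 and Gdf10 were 74.8% identical there, whereas Bmp3 was 52.6% to 57.3% identical to the other 7 ligand genes.

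RefSeq start-site windows on GRCm38.p6 were given for 5 of the 9 genes. Those of Bmp4, Bmp5 and Gdf10 are shown, because these are the genes among the 5 whose level differed between the sites. Each is the 250 bases before the annotated start, 5′ to 3′ on the gene's strand, and capitals mark the GC box letters GGGCGG on either strand.
Bmp4 (chr14:46390670-46390919, minus strand): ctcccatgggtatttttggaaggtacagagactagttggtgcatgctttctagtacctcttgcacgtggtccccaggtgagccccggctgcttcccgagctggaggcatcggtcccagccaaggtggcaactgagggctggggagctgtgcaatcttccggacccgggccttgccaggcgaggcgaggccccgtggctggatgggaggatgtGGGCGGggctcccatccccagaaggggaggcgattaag
Bmp5 (chr9:75775115-75775364, plus strand): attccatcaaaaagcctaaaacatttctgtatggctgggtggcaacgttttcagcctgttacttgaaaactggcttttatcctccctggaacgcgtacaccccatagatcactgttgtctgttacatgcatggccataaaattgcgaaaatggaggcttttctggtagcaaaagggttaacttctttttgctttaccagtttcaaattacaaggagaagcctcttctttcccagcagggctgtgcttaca
Gdf10 (chr14:33923337-33923586, plus strand): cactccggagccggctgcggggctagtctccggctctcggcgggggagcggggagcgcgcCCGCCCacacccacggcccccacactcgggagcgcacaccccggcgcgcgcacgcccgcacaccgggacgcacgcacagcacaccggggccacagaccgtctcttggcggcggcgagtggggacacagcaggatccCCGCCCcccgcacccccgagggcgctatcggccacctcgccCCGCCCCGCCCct
The window of Gdf10, the ligand gene that was higher in vSSC, had 78.8% G and C, 35 CpG dinucleotides and 4 GC box matches, 2 of which share a base. That of Bmp4 had 63.2% G and C, 11 CpG and 1 match, and that of Bmp5 had 42.8% G and C, 4 CpG and no match. Among windows not shown, that of Bmp6, which was not called, had 68.8% G and C, 22 CpG and 1 match. That of Bmp8a, which was not tested, had 62% G and C, 12 CpG and 2 matches. The median of all 32851 windows was 52.4% G and C with 6 CpG. Of all windows, 32.7% held GGGCGG on either strand. The letters TATAAA (12.4% of all windows), CCAAT (33.8%) and TGTGGT (14%), also searched on both strands, were in none of the 3 windows shown. These matches describe the letters and are not shown to be sites.

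Expression is given as FPKM, fragments per kilobase of transcript scaled to the mapped fragments of the library, so levels can be set side by side between genes. The FPKM of a library summed to 517314 to 571869 in vSSC and 460302 to 521489 in lbSSC over all genes, and 10337 to 10578 against 10644 to 10753 genes reached an FPKM of at least 1. Ribosomal protein genes took 17.9% to 20.9% of the sum in vSSC and 15.3% to 17.98% in lbSSC. A difference is the vSSC mean less the lbSSC mean of log2(FPKM + 1), given ± SE. It was tested with limma on the 10729 genes that reached 1 FPKM in 4 or more of the 8 libraries, and called at an adjusted p (Benjamini-Hochberg over all these genes) under 0.05. The median difference of all tested genes was 0.08. Scaling by median of ratios moved it to -0.003, rescaling to one sum to -0.04 and quantile normalization to 0.03.

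The cells of the spine carried much less Bmp4, Bmp5 and Gdf6 RNA than the cells of femur and tibia and more Gdf10 RNA. Bmp2, Bmp3, Bmp6 and Bmp7 did not pass the test. Of the 9 genes 8 were tested, and 4 of these were called, 1 higher and 3 lower in vSSC. Of all tested genes 23.5% were called, 14.3% higher and 9.17% lower. Those 4 ligand genes were also the ones without overlap between the groups, which held for 25.8% of all tested genes. With the replicate number as a block 4 of 8 were called too, and 29.8% of all genes. Gdf6 passed the filter only through lbSSC, where it is high, so it could only be lower, and 3 of the 7 genes expressed at both sites were called. In bulk RNA, fewer cells of a type and less RNA per cell cannot be told apart.

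**Figure D1:**
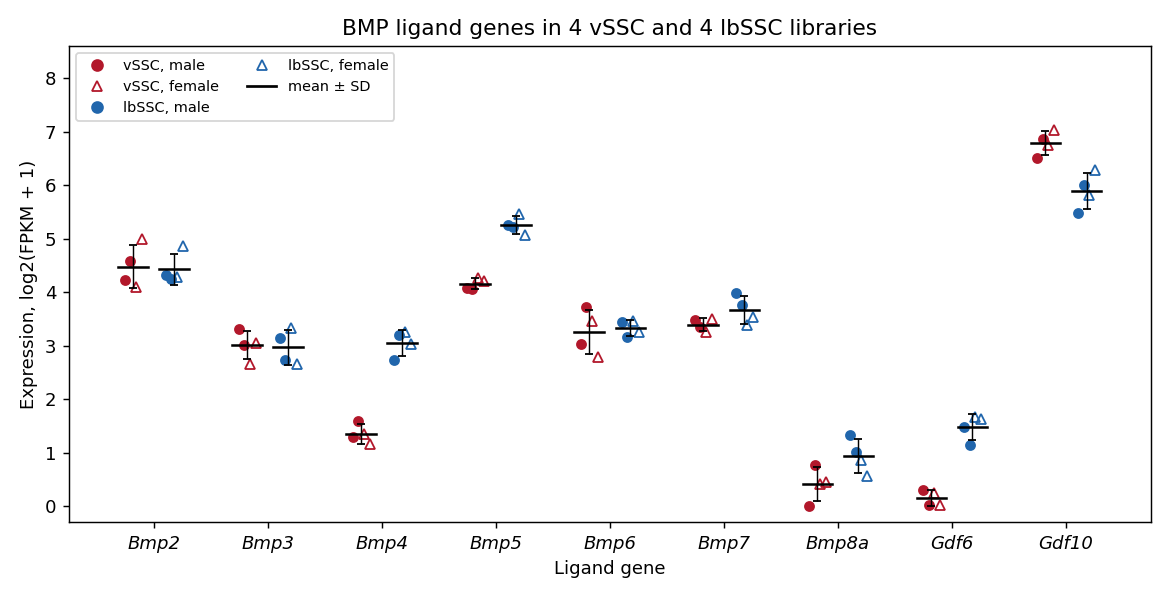
Expression of the 9 ligand genes on the log2(FPKM + 1) scale in each library, vSSC in red left of lbSSC in blue, with filled circles for male and open triangles for female libraries. Black bars are means with SD over 4 libraries. Bmp4, Bmp5 and Gdf6 lie lower in all vSSC libraries and Gdf10 higher.

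Bmp4, an inducer of bone and cartilage with broad roles in the embryo, was among the ligand genes that fell. It was at 1.45, 2.03, 1.56 and 1.24 FPKM in vSSC replicates 1 to 4, against 5.60, 8.20, 8.53 and 7.18 FPKM in lbSSC replicates 1 to 4. The lowest lbSSC library stood well above the highest vSSC library. The means were 1.57 ± 0.336 FPKM in vSSC and 7.38 ± 1.32 FPKM in lbSSC (SD, n = 4 each), a ratio of 0.213, and the difference was -1.70 ± 0.16 (limma, adjusted p = 3.94e-05). Bmp4 lies on chromosome 14 at 46383520 to 46390669 on the minus strand (GRCm38). Its 3′ end overlaps the gene model Gm15217 on the other strand, which was listed at 0 in all 8 libraries.

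Bmp5, the gene mutated in short ear mice, which have reduced skeletal elements, fell by 1.09 ± 0.11 on the log2 scale (limma, adjusted p = 7.45e-05). Its levels were 16.0, 15.7, 18.2 and 17.5 FPKM in vSSC, against 37.2, 36.3, 43.1 and 32.3 FPKM in lbSSC. The vSSC libraries lay within a narrow band, and each lbSSC library was far above it. The means were 16.9 ± 1.22 FPKM in vSSC and 37.2 ± 4.43 FPKM in lbSSC. Bmp5 lies on chromosome 9 at 75775364 to 75900310, and an annotated antisense gene, Gm26903, overlaps its exons. The library chemistry does not mark the strand, so reads of this pair cannot be told apart.

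Gdf6, a ligand that acts in joint and vertebral development, was at a very low level in vertebral cells. Its levels were 0.227, 0.0152, 0.192 and 0.0121 FPKM in vSSC, against 1.80, 1.195, 2.17 and 2.11 FPKM in lbSSC. No vSSC library reached an FPKM of 1, while each lbSSC library did. The means were 0.112 ± 0.114 FPKM in vSSC and 1.82 ± 0.445 FPKM in lbSSC, and the difference was -1.33 ± 0.17 (limma, adjusted p = 0.000324). The scale understates changes at such low levels: the ratio of the means was 0.0613, and with a pseudocount of 0.1 the difference was -3.32, against -2.17 for Bmp4. It was the gene of smallest mean FPKM among the 9 in vSSC. Gdf5, its closest relative among those compared, showed the same direction in the test, with 9.10 ± 2.20 FPKM in vSSC and 21.1 ± 4.06 FPKM in lbSSC.

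Gdf10 was the most abundant ligand gene at both sites and the one that rose. It was at 89.3, 115.1, 106.3 and 130.2 FPKM in vSSC, against 43.7, 63.0, 55.3 and 76.7 FPKM in lbSSC. The groups did not overlap, although the lowest vSSC library and the highest lbSSC library were close. The means were 110.2 ± 17.1 FPKM in vSSC and 59.7 ± 13.9 FPKM in lbSSC, a ratio of 1.85, and the difference was 0.89 ± 0.17 (limma, adjusted p = 0.00364). Its relative Bmp3, once isolated as osteogenin and abundant in bone matrix, was at 8.86, 7.03, 5.35 and 7.24 FPKM in vSSC, against 7.83, 5.62, 9.11 and 5.33 FPKM in lbSSC. These values interleave, with a difference of 0.04 ± 0.19 (95% interval -0.37 to 0.44; limma, adjusted p = 0.901).

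Bmp2, the closest relative of Bmp4 and a strong inducer of osteoblasts, was at 17.6, 23.0, 16.1 and 30.8 FPKM in vSSC, against 18.9, 17.9, 18.4 and 28.1 FPKM in lbSSC. Replicate 4 was the highest of both groups. The difference was 0.05 ± 0.20 (95% interval -0.39 to 0.49; limma, adjusted p = 0.881), and the sign of Bmp2 and of Bmp3 turned with the scaling (Bmp3 not with quantile normalization). The FPKM of Bmp2 was 10.4 to 24.8 times that of Bmp4 in vSSC and 2.16 to 3.91 times in lbSSC. The ribosomal protein share of replicate 4 was 17.9% in vSSC, the lowest of the group, and 15.3% in lbSSC, as in lbSSC replicate 3, and the part of this in the level of Bmp2 was not tested. With that share as a covariate the difference of Bmp2 was 0.66 (limma, adjusted p = 0.128).

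Bmp7, a ligand of kidney, eye and skeletal development, was at 10.1, 9.24, 8.51 and 10.3 FPKM in vSSC, against 14.7, 12.6, 9.45 and 10.5 FPKM in lbSSC. The difference of -0.27 ± 0.15 did not pass (95% interval -0.59 to 0.05; limma, adjusted p = 0.194). Nor did it pass under the other scalings, where it was larger. It was -0.40 after rescaling to one sum (limma, adjusted p = 0.0517), -0.36 with median of ratios (0.0792) and -0.34 with quantile normalization (0.101). The male lbSSC libraries held the 2 highest values. Bmp6, known for control of iron balance and expressed in hypertrophic cartilage, was at 7.16, 12.2, 10.1 and 5.95 FPKM in vSSC, against 9.81, 7.996, 10.0 and 8.52 FPKM in lbSSC. The spread was wider in vSSC, which held both the highest and the lowest value, and the difference was -0.08 ± 0.19 (95% interval -0.49 to 0.34; limma, adjusted p = 0.796). An exon of Bmp6 overlaps Txndc5 on the other strand in GENCODE M21, though the deposited loci of the pair do not, and Txndc5 was at 160.5 to 175.2 FPKM in vSSC and 160.8 to 176.3 FPKM in lbSSC.

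Bmp8a was not tested, since only 2 libraries reached an FPKM of 1. It was listed at 0 in vSSC replicate 1 and at 0.699, 0.341 and 0.369 FPKM in vSSC replicates 2 to 4, against 1.51, 1.01, 0.818 and 0.481 FPKM in lbSSC. The groups overlap, in that vSSC replicate 2 lay above lbSSC replicate 4. In a fit without the filter the difference was -0.53 ± 0.21 (limma, unadjusted p = 0.0417, adjusted p = 0.208). Its paralog Bmp8b, 88% identical over the coding sequence, was listed at 0 except in vSSC replicate 4 (0.0531 FPKM) and lbSSC replicate 3 (0.0362 FPKM). Reads that fit both copies make either level uncertain.

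**Figure D2:**
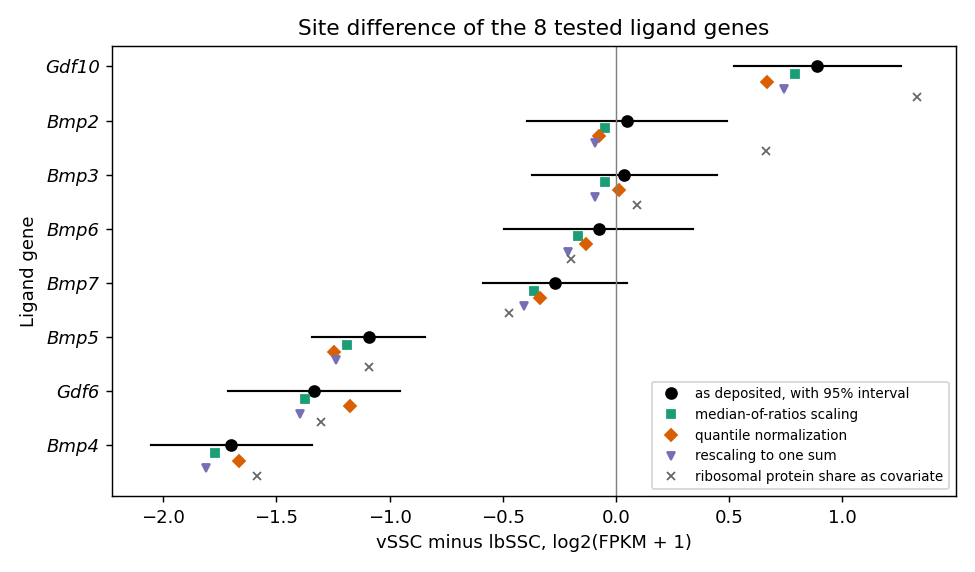
Difference between vSSC and lbSSC on the log2(FPKM + 1) scale for the 8 tested ligand genes, with the 95% interval of the fit to the deposited values in black, and in symbols the estimates under 3 other scalings and with ribosomal protein share in the model. The estimates for Bmp4, Gdf6, Bmp5 and Gdf10 stay on their side of 0, from -1.70 for Bmp4 to 0.89 for Gdf10 as deposited.

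Gdf10 had the highest level at both sites, and the order of the means below it was not the same. In vSSC, Gdf10 was followed by Bmp2, Bmp5, Bmp7, Bmp6, Bmp3, Bmp4, Bmp8a and Gdf6. In lbSSC, Gdf10 was followed by Bmp5, Bmp2, Bmp7, Bmp6, Bmp4, Bmp3, Gdf6 and Bmp8a. Some neighbours could not be separated. In vSSC, Bmp7 lay above Bmp6 in 2 of 4 libraries, Bmp6 above Bmp3 in 2 of 4, and Bmp2 above Bmp5 in 3 of 4. In lbSSC, Bmp4 lay above Bmp3 in 2 of 4 libraries, and both Bmp7 above Bmp6 and Bmp6 above Bmp4 in 3 of 4. Bmp5 lay above Bmp2 in 4 of 4 lbSSC libraries and above it in 1 of 4 vSSC libraries.

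The 9 genes summed to 176.5 ± 22.8 FPKM in vSSC and 155.8 ± 12.4 FPKM in lbSSC (SD, n = 4 each), with overlapping ranges of 150.8 to 203.5 and 141.1 to 171.3 FPKM. The make-up of that sum was unlike at the 2 sites. Gdf10 took 59.3% to 64.0% of it in vSSC and 30.9% to 44.8% in lbSSC, and Bmp5 took 8.50% to 10.9% in vSSC and 18.9% to 27.4% in lbSSC. Without Gdf10 the sum was 60.4 to 73.4 FPKM in vSSC and 90.7 to 101.6 FPKM in lbSSC, and those ranges do not overlap. This remainder holds Bmp4, Bmp5 and Gdf6, which were called lower, so its gap is not a separate result. Bmp5 alone averaged 16.9 FPKM in vSSC and 37.2 FPKM in lbSSC. The FPKM of Gdf10 was 5.60 to 7.43 times that of Bmp5 in vSSC and 1.17 to 2.37 times in lbSSC. These sums describe RNA and say nothing of secreted protein.

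**Figure D3:**
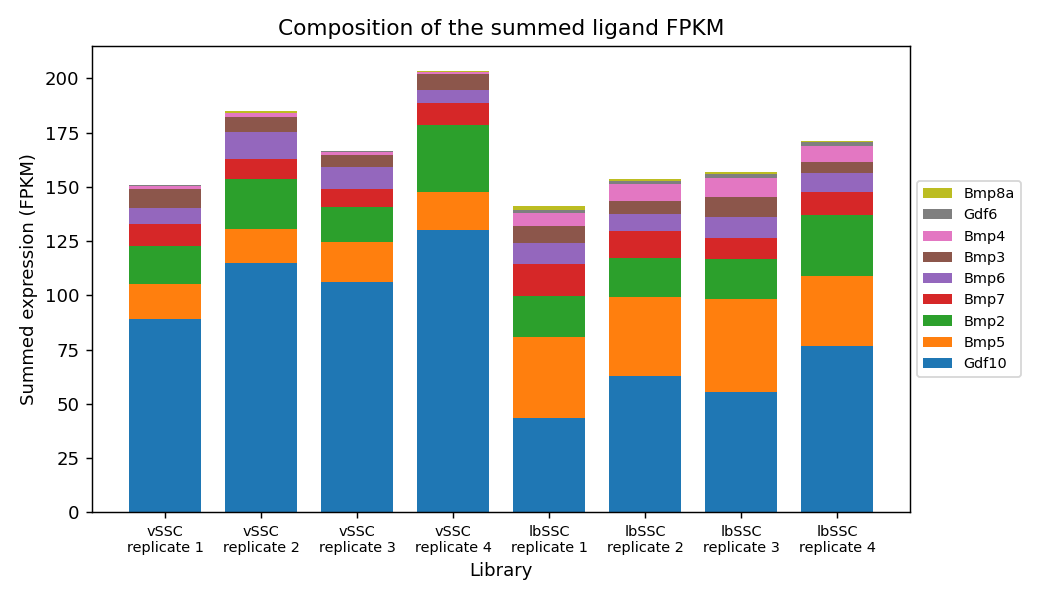
Summed FPKM of the 9 ligand genes in each library, with 1 bar per library, vSSC on the left, and 1 colour per gene. Gdf10 (blue, at the foot of each bar) takes 59.3% to 64.0% of the bar in vSSC and 30.9% to 44.8% in lbSSC.

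No ligand gene passed the test between the sexes or the test of a site difference that depends on sex. In the male minus female comparison with site as a covariate 0 of 8 tested genes were called by limma, and 0 of 8 had an unadjusted p under 0.05. Of all genes 0.0466% were called and 8.31% had such a p. The smallest unadjusted p was 0.115, that of Bmp7, at 9.68 FPKM in male and 9.40 FPKM in female vSSC, and 13.7 FPKM in male and 10.0 FPKM in female lbSSC (male minus female 0.23 ± 0.13, 95% interval -0.07 to 0.52). Gdf10 was next, with -0.26 ± 0.15 (95% interval -0.60 to 0.08). In the interaction of site and sex 0 of 8 were called by limma and 0 of 8 had an unadjusted p under 0.05, while of all genes 0% were called and 3.77% had such a p. With 2 libraries per sex and site, these intervals leave room for moderate differences.

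For each tested ligand gene, the genes with the most similar levels over the 8 libraries were looked up, by Pearson's r on the log2(FPKM + 1) scale. These r values share libraries and, for the called genes, the gap between the sites, and are given as a description. Bmp4 was most like Nrp2, a receptor of semaphorins and VEGF, and Clu, a secreted chaperone (r = 0.993 and 0.992). Bmp5 was most like Fmnl2, a formin, and Col1a2, a chain of type I collagen (0.994 and 0.991). Gdf6 was most like the hindlimb factor Tbx4 and Sox4 (0.990 for both). Gdf10 was most like Hoxc6, a Hox factor of the trunk, and Cntfr, a receptor subunit for ciliary neurotrophic factor (0.972 and 0.947). Among the genes that were not called, Bmp2 was most like Ccdc130 and Irs1, an adaptor of the insulin receptor (0.997 and 0.954), and both have their highest level of each site in replicate 4. Bmp7 went with Sfxn4 and Fam126b (0.960 and 0.954), Bmp6 with Bcan and Wdpcp (0.948 and 0.933) and Bmp3 with Ift22 and Fbxo46 (0.903 and 0.902).

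The other genes of the pathway were taken as 66 names in 5 groups, of which 48 were tested. Of these, 7 were higher and 15 lower in vSSC. Of all tested genes 14.3% were higher and 9.17% lower, shares to be set beside each list below too. The median difference of the 48 was -0.27, against 0.08 over all tested genes. Over the 8 ligand genes it was -0.17, and Gdf6, which is among them, could only be lower. After rescaling to one sum 5 of the 48 were higher and 19 lower. Of all calls 60.9% were higher in vSSC as deposited, 42.4% after that rescaling, 50% with quantile normalization and 49.5% with median-of-ratios scaling. In the model with ribosomal protein share 11 were called, 4 higher and 7 lower, while the calls among all 10729 genes numbered 623, against 2518 as deposited, and 38% of the 623 were higher.

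Of 14 further ligand genes of the family, 2 were expressed highly enough to be tested, and both were lower in vSSC. Besides Gdf5 (-1.14 ± 0.18, limma, adjusted p = 0.00111) this was Inhba, the beta A subunit of activin, at 1.64 ± 0.717 FPKM in vSSC and 3.31 ± 0.404 FPKM in lbSSC (difference -0.74 ± 0.20, adjusted p = 0.0198). The call of Inhba was lost without vSSC replicate 2 (adjusted p = 0.0510), lbSSC replicate 3 (0.0601) or lbSSC replicate 4 (0.0585), and over its alternatives the adjusted p ran from 0.00293 to 0.0920. Bmp10 and Gdf7 were listed at 0 in every library.

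Of 8 tested receptor genes 1 was higher and none lower, with a median difference of -0.10. Bmpr1b, a type I receptor of cartilage condensations, was at 4.24 ± 0.281 FPKM in vSSC and 0.604 ± 0.258 FPKM in lbSSC (1.72 ± 0.16, limma, adjusted p = 2.83e-05), and passed the filter only through vSSC. The main type I receptor gene by level, Bmpr1a, was at 52.9 ± 5.62 FPKM in vSSC and 49.2 ± 3.302 FPKM in lbSSC (difference 0.10 ± 0.11, adjusted p = 0.532). Acvr1, the type I receptor gene altered in fibrodysplasia ossificans progressiva in humans, differed by -0.26 ± 0.15 and Acvr1b, an activin receptor, by -0.34 ± 0.18, and neither passed (adjusted p = 0.227 and 0.190). Tgfbr3, a coreceptor also named betaglycan, differed by -0.58 ± 0.21 (adjusted p = 0.0628) and passed as lower without vSSC replicate 4 (0.0229) and with the replicate block (0.0301), while in the model with ribosomal protein share its sign turned (0.14).

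Extracellular antagonists, which bind BMPs and keep them from their receptors, moved in both directions. Of 14 tested, 3 were higher and 7 lower in vSSC (median -0.38). The chordin relative Chrdl1 (2.63 ± 0.13) and noggin, Nog, at 15.2 ± 3.54 FPKM in vSSC and 5.78 ± 2.09 FPKM in lbSSC (1.27 ± 0.21, limma, adjusted p = 0.00177), were higher. Gremlin 1, Grem1, at 3.32 ± 0.762 FPKM in vSSC and 16.0 ± 2.77 FPKM in lbSSC (-1.98 ± 0.17), was lower. Follistatin, Fst, which mainly binds activins, fell to 0.380 ± 0.303 FPKM in vSSC, against 3.14 ± 0.255 FPKM in lbSSC, and passed the filter only through lbSSC. Crim1, a transmembrane protein that binds BMPs, differed by -1.06 ± 0.14 (adjusted p = 0.000383).

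Genes for processing enzymes and coreceptors were lower where called, 3 of 7 tested (median -0.38). Pcsk5, a convertase that cleaves proproteins of this superfamily, was at 1.24 ± 0.446 FPKM in vSSC and 4.65 ± 0.786 FPKM in lbSSC (-1.35 ± 0.18, limma, adjusted p = 0.000335). Bmp1, a metalloprotease that cleaves procollagen and chordin and is not a BMP ligand despite its name, was at 29.7 ± 2.35 FPKM in vSSC and 45.7 ± 3.20 FPKM in lbSSC (-0.61 ± 0.10). Its relative Tll1 differed by -1.19 ± 0.15. The coreceptor gene Rgmb did not pass as deposited (-0.38 ± 0.13, adjusted p = 0.0580). It passed as lower in 5 of 20 alternatives, which were median-of-ratios scaling (limma, adjusted p = 0.0405), rescaling to one sum (0.0328), sex as a covariate (0.0416), the replicate block (0.0416) and the filter at 5 FPKM (0.0490).

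Among 17 Smad and target genes 3 were higher and 3 lower (median -0.14). Id1, a transcriptional target of BMP signalling, was at 402.0 ± 45.5 FPKM in vSSC and 235.2 ± 28.3 FPKM in lbSSC (0.77 ± 0.12, limma, adjusted p = 0.00109). The Id family did not move as one. Id2 was higher too (0.35 ± 0.11, limma, adjusted p = 0.0351). Id3 (0.23 ± 0.12, adjusted p = 0.176) and Id4 (-0.33 ± 0.13, adjusted p = 0.0878) did not pass. Msx1, a relative of Msx2, was lower (-0.73 ± 0.24, limma, adjusted p = 0.0475). Dlx5, a homeobox gene of osteoblasts, was higher (0.53 ± 0.15, adjusted p = 0.0270). Bambi, a decoy receptor (-0.38 ± 0.11, adjusted p = 0.0277), and Msx2, a homeobox target gene (-0.59 ± 0.18, adjusted p = 0.0350), were lower. Id1 kept its call in each of 20 alternatives, though close to the threshold in the model with ribosomal protein share (limma, adjusted p = 0.0488). Id2 and Msx1 were not followed one by one through the alternatives. The calls of Dlx5, Bambi and Msx2 were close to the threshold, and each was lost in several alternatives. That of Dlx5 was lost without vSSC replicate 2, 3 or 4 or lbSSC replicate 2 or 4 (adjusted p up to 0.0764), under each of the 3 other scalings (up to 0.105), without a filter (0.107) and in the model with ribosomal protein share (0.0754). That of Bambi was lost without any 1 library except vSSC replicate 3 and lbSSC replicate 4 (up to 0.0685), without vSSC replicates 1 and 3 (0.0652) and in the model with ribosomal protein share (0.0553). That of Msx2 was lost without the same single libraries (up to 0.0882), without vSSC replicates 1 and 3 (0.0817), with quantile normalization (0.112), without a filter (0.0819) and in the model with ribosomal protein share (0.0938).

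**Figure D4:**
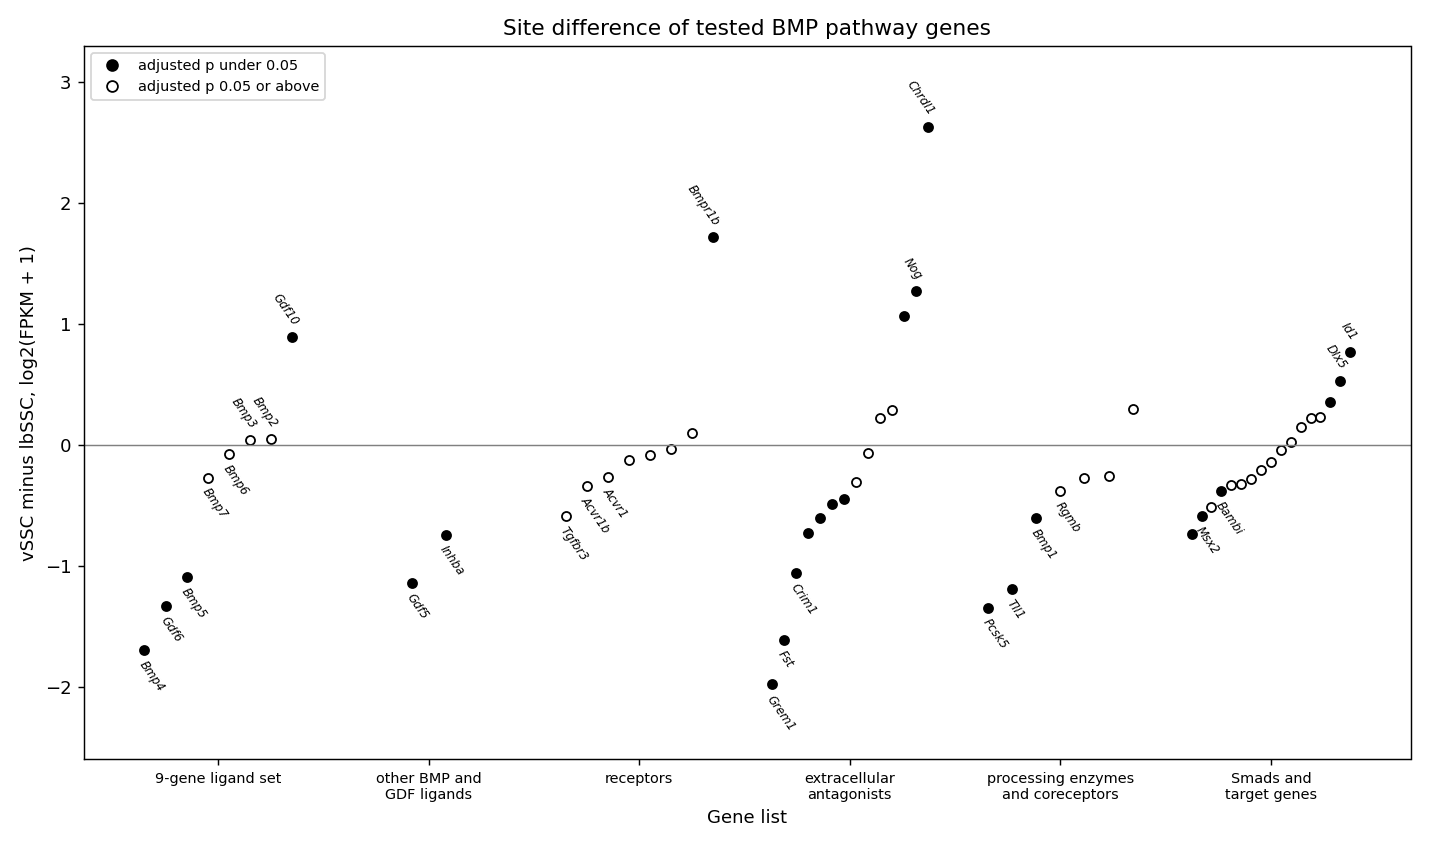
Difference between vSSC and lbSSC on the log2(FPKM + 1) scale for each tested gene of the 9-gene ligand set and of 5 lists of other BMP pathway genes, in rising order within a list. Filled points passed an adjusted p of 0.05, and the highest and lowest points are Chrdl1 at 2.63 and Grem1 at -1.98.

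Markers of the cell types in the sort moved with the sites too. Of 6 osteoblast markers 3 were lower and 1 higher in vSSC, and their FPKM summed to 1130 to 1239 in vSSC and 3986 to 5852 in lbSSC. Most of that gap was Col1a1, a chain of type I collagen, at 723.4 ± 71.5 FPKM in vSSC and 4093 ± 836.0 FPKM in lbSSC. Bglap and Dmp1 were lower too, Sp7, a transcription factor of osteoblasts, was higher, and Ibsp averaged 233.1 FPKM in vSSC and 233.2 FPKM in lbSSC. Of 6 chondrocyte markers 2 were higher, with sums of 13460 to 21790 FPKM in vSSC and 14610 to 24275 FPKM in lbSSC, so both groups carried the defining genes of cartilage. Of 6 tested markers of blood cells 4 were higher in vSSC. In vSSC and lbSSC, S100a8 averaged 155.2 and 30.9 FPKM, and S100a9 115.9 and 27.2 FPKM. Lyz2 averaged 16.0 and 5.33 FPKM, and Cd79a 5.19 and 0.999 FPKM. The sums of the blood cell markers, 3691 to 5016 FPKM in vSSC and 3820 to 7808 FPKM in lbSSC, are mostly globin. The globin genes Hbb-bs and Hba-a1 were not called. Ptprc, which encodes CD45, averaged 0.525 FPKM in vSSC and 0.0402 FPKM in lbSSC. Of 3 tested Schwann cell markers 2 were higher, with sums of 119.6 to 140.8 FPKM in vSSC and 91.8 to 113.5 FPKM in lbSSC. Endothelial markers summed to at most 0.287 FPKM in vSSC and 0.178 FPKM in lbSSC, those of skeletal muscle to at most 0.290 FPKM in vSSC and 0.738 FPKM in lbSSC, and Myod1 was listed at 0 in all libraries. The part of these cells in the differences of the ligand genes was not tested.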

How the data were processed

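RNA-seq of 4 vSSC and 4 lbSSC libraries was used. Per the labels' protocols, cDNA came from the SMART-Seq v4 kit and was tagged with Nextera XT. The submitters' processing notes name Cufflinks 2.1.1, STAR 2.5.2, bcl2fastq 2.19 and the build GRCm38, without settings. The authors deposited FPKM per protein-coding gene. Absolute depth is unknown: among low values no ratio between 2 libraries recurred in more than 3 genes within a relative tolerance of 2e-05, so no fragment step was found and no counting interval is given. Loci are as deposited with 1 added to the start, since for 82.3% of genes matched to GENCODE M21 the listed start was smaller by 1.

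Values were analysed as log2(FPKM + 1) in R 4.3.3 with limma 3.58.1 (variance trend), tested on simulated data. The site fit had no covariate, the sex fit included site, and another fit added their interaction. All 9 ligand genes are described. Of each pathway list up to 4 genes with the smallest site p are named, plus 7 fixed names. Bmpr1a, Bmp10, Gdf7, Bmp8b, Id2, Id3, Id4, Msx1, the overlapping genes and single cell type markers were added after their values were seen. For each tested ligand gene the 2 most correlated genes are named. The ligand genes, lists and alternatives were chosen with earlier results of these data known. Promoter windows are from RefSeq (GRCm38.p6), and coding identity is from global alignment (Biopython 1.88) of GENCODE M21 coding sequences of APPRIS principal isoforms, since the longest isoforms of Bmp3 and Bmp8a differ in their coding ends or exons. Alternatives were 2 pseudocounts (0.1, 0.01), no filter, a filter at 5 FPKM, 3 scalings, no variance trend, sex, replicate number or ribosomal protein share as covariates, and libraries left out.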

Additional observations from a re-analysis of the deposited data

Results flagged for a closer look

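Bmp2 in lbSSC replicate 4 stood apart from the rest of its group, at 28.1 FPKM, whereas the other lbSSC libraries were at 18.9, 17.9 and 18.4 FPKM. Its gap to the nearest of these was 0.896 of the group's range, above Dixon's 95% critical value for 4 samples. It was the only one of 18 groups of 4 values so marked over the 9 ligand genes, and chance marks about 1 in 20. In vSSC, replicate 4 was also the highest, at 30.8 FPKM, without passing that value.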

How the results depend on the processing

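The 4 ligand genes called between the sites, Bmp4, Bmp5, Gdf6 and Gdf10, kept their direction and their call in every one of the 20 alternatives that tested them (19 for Gdf6, which the filter at 5 FPKM leaves out). Bmp4 ranged from -2.23 to -1.59, Bmp5 from -1.25 to -1.02, Gdf6 from -4.63 to -1.18 and Gdf10 from 0.67 to 1.33, and with each library left out the count of called ligand genes was 4. The low end for Gdf6 is that of a pseudocount of 0.01. The call of Gdf10 came near the threshold without a filter (limma, adjusted p = 0.0444) and with quantile normalization (0.0390). The adjusted p of Bmp4, Bmp5 and Gdf6 reached at most 0.0211, that of Gdf6 in the model with ribosomal protein share. The counts of 0 for sex and for the interaction stayed 0 in each of 15 alternatives. Bmp2, Bmp3 and Bmp6, whose differences are small, changed sign. Rescaling to one sum gave -0.093 for Bmp2 and -0.092 for Bmp3, median-of-ratios scaling -0.048 for Bmp2 and -0.050 for Bmp3, and quantile normalization -0.076 for Bmp2. With single libraries left out Bmp2 ran from -0.12 to 0.19, Bmp3 from -0.065 to 0.16 and Bmp6 from -0.23 to 0.076. The count of 22 other pathway genes was 14 without vSSC replicates 1 and 3, where fewer samples entered, and 11 in the model with ribosomal protein share, and 15 to 21 with single libraries left out. The calls among all genes numbered 1095, 623 and 1534 to 2991 in these fits, against 2518. In the model with ribosomal protein share Tgfbr3 was 0.14, Acvr1b 0.11 and Acvr1 0.16. The calls of Bmp1 and Nog were lost there (limma, adjusted p = 0.0676 and 0.0785). Their differences were -0.49 and 1.22, against -0.61 and 1.27 as deposited. The share was 17.9% to 20.9% in vSSC and 15.3% to 17.98% in lbSSC, with almost no overlap. That model can therefore hardly tell the share from the site, and the cause was not tested. Same-numbered libraries did not deviate together in all pairs (correlations of 0.26, -0.09, -0.06 and 0.44 for replicates 1 to 4). Differently numbered pairs ran from -0.36 to 0.21, below the values of replicates 1 and 4. So few libraries cannot settle whether the numbers pair the samples. With the replicate number as a block 4 ligand genes and 24 other pathway genes were called, and 3194 of all genes in place of 2518. Depth is unknown, so no counting error can be given for the low levels of Gdf6 and Bmp8a.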
